A study of Triticum aestivum with 96 samples.

Results

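In flag leaves of bread wheat (Triticum aestivum, the Australian cultivar Mace), 73 of 139118 listed genes cycled with at least a 1 log2 peak-to-trough difference and peaked around subjective dusk. They were chosen from RNA-seq by their measured rhythm. A gene needed a mean scaled count of at least 50 in senescent and in mature leaves, which left 20577 genes. Its fitted 24 h peak in mature leaves had to fall from 10 to under 14 h after the hour of dawn, which held for 2977 genes. The fitted peak-to-trough difference had to reach 1 on the log2 scale in both stages, which left 131 genes, and the peak had to differ by under 2 h between the stages. All 73 genes that met these conditions are described, because the limit of 150 genes was not reached. Scaled counts are the deposited values, reads per gene put on a common scale with 1 factor per library.

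Flag leaves of the senescent stage had visibly lost chlorophyll, and those of the mature stage came from plants at ear emergence. Both groups were Mace plants in 1 growth room, sown 28 days apart, so stage and sowing batch cannot be told apart. All plants had 12 h of light at 20 °C and 12 h of dark at 15 °C until a dawn (Zeitgeber time 0, ZT0) at which continuous light and a constant 20 °C began. Whole leaves were taken with a 2 h interval from ZT45 to ZT91, giving 24 times, with 2 libraries per stage and time and RNA of 2 leaves pooled in each library. There were 48 senescent and 48 mature libraries. Libraries are pools of separate leaves. The p-values measure the scatter of such pools around the fitted curves, which also holds departures from the shape of the curve. In whole leaves, fewer cells of a type and less RNA per cell cannot be told apart.

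A circadian clock keeps running in constant light, and hours that would have been dusk are then called subjective dusk. In plants, transcripts that peak in the evening include parts of the clock itself, such as GIGANTEA and, in Arabidopsis, the evening complex of ELF3, ELF4 and LUX, which represses genes active at other hours. Evening genes also prepare the leaf for the night, when stored starch replaces photosynthesis as the source of carbon. None of the identifiers of the Mace annotation could be paired with a gene name here, so the genes are given by identifier, and it is not known which of these roles any of them has. The 2 characters after TraesMAC in an identifier give the chromosome and its A, B or D subgenome, of which bread wheat carries all 3.

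Libraries held an estimated 4789055 to 11831485 reads in senescent leaves (median 6919315) and 5315523 to 9280642 reads in mature leaves (median 6726060). Log2 values of all tested genes correlated between the 2 libraries of a time with a median r of 0.962 in senescent and 0.940 in mature leaves. The lowest agreement was 0.931 at ZT45 in senescent leaves and 0.881 at ZT91 in mature leaves.

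The dusk genes formed a clear daily wave in both stages. For each gene the log2(scaled count + 2) was set relative to its mean in that stage, and the median over the 73 genes was taken at each time. In senescent leaves this median reached 0.74 at ZT57 and 0.60 at ZT81, and its lowest value was -0.77 at ZT75. In mature leaves it reached 0.73 at ZT61 and 0.60 at ZT83, with troughs of -0.93 at ZT49 and -0.72 at ZT73. The first trough in senescent leaves was shallow, at -0.31 at ZT47. The 2 mature libraries of ZT45 had medians of -0.37 and -1.07, and those of ZT49 had -1.23 and -0.60, which is wider than at most other times.

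**Figure D1:**
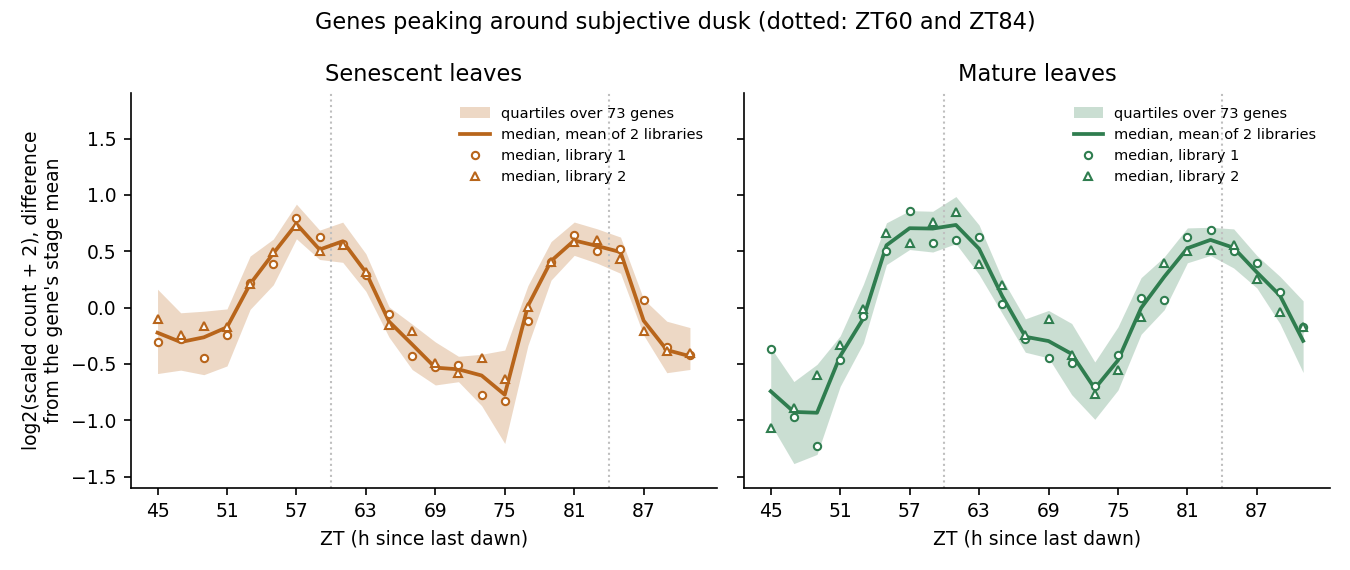
Median over the 73 dusk genes of log2(scaled count + 2) relative to each gene's stage mean (y axis) against ZT in hours (x axis), senescent leaves left and mature leaves right. Bands are quartiles over genes and symbols are medians of single libraries; the first trough was -0.31 at ZT47 in senescent leaves and -0.93 at ZT49 in mature leaves.

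Peak times were also read without a fit, as description, because the same values chose the genes. The range of 7 to 15 h counted here is wider than the 10 to under 14 h of the rule. The highest mean of 2 libraries fell from 7 to 15 h for 69 genes in the earlier and 71 in the later 24 h of senescent leaves, and for 69 genes in each 24 h of mature leaves. The median gene had this highest value at 9 h in senescent and at 11 h in mature leaves, before the 12 h point of subjective dusk. The fitted senescent peak lay before 10 h for 21 genes. All 8 libraries of ZT59, ZT61, ZT83 and ZT85 exceeded all 8 libraries of ZT47, ZT49, ZT71 and ZT73 for 50 genes in senescent and 54 genes in mature leaves. This held for 1.54% of all 42428 tested genes in senescent and 1.75% in mature leaves, but the choice of the genes used the same hours and fixes the direction. Large rhythms were few: the smaller of the 2 peak-to-trough differences was under 1.5 log2 for 56 of the 73 and at least 2 log2 for 5.

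The rule itself fixed the following values, which are given as description. Fitted peaks had a median of 10.8 h in senescent leaves (from 8.17 to 15.9 h) and 11.1 h in mature leaves (from 10 to 14 h). In mature leaves 34 genes peaked from 10 to under 11 h, 17 from 11, 12 from 12 and 10 from 13 h. The peak was earlier in senescent leaves for 48 genes and later for 25, with a median shift of -0.57 h (quartiles -1.28 and 0.51 h). The peak-to-trough difference had a median of 1.29 log2 in senescent and 1.45 log2 in mature leaves and was the larger in senescent leaves for 21 genes and in mature leaves for 52. Scatter around the fit had a median SD of 0.33 log2 in senescent and 0.39 log2 in mature leaves, against 0.22 and 0.28 log2 for all 20577 genes with a mean of at least 50.

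Per gene length, the mean level of the 73 genes had a median of 12.1 FPKM in senescent leaves (from 2.47 to 297) and 14.2 FPKM in mature leaves (from 3.18 to 172). FPKM is a count scaled to gene length and library size.

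At the edge of the rule, TraesMAC6D03G03765160 (1.006 log2, the smaller of the peak-to-trough differences) and TraesMAC7D03G04386380 (1.007 log2) were the last inside. TraesMAC2B03G01030780 (0.999 log2) and TraesMAC5B03G02941910 (0.994 log2) were the first outside. The same conditions in the other 4 h windows of mature peak time kept 17.6% of genes peaking from 18 to under 22 h, 9.04% of those from 22 to 2 h, 4.33% from 2 to 6 h, 5.61% from 6 to 10 h and 5.42% from 14 to 18 h. In the dusk window they kept 2.45%, the lowest share of the 6 windows.

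**Figure D2:**
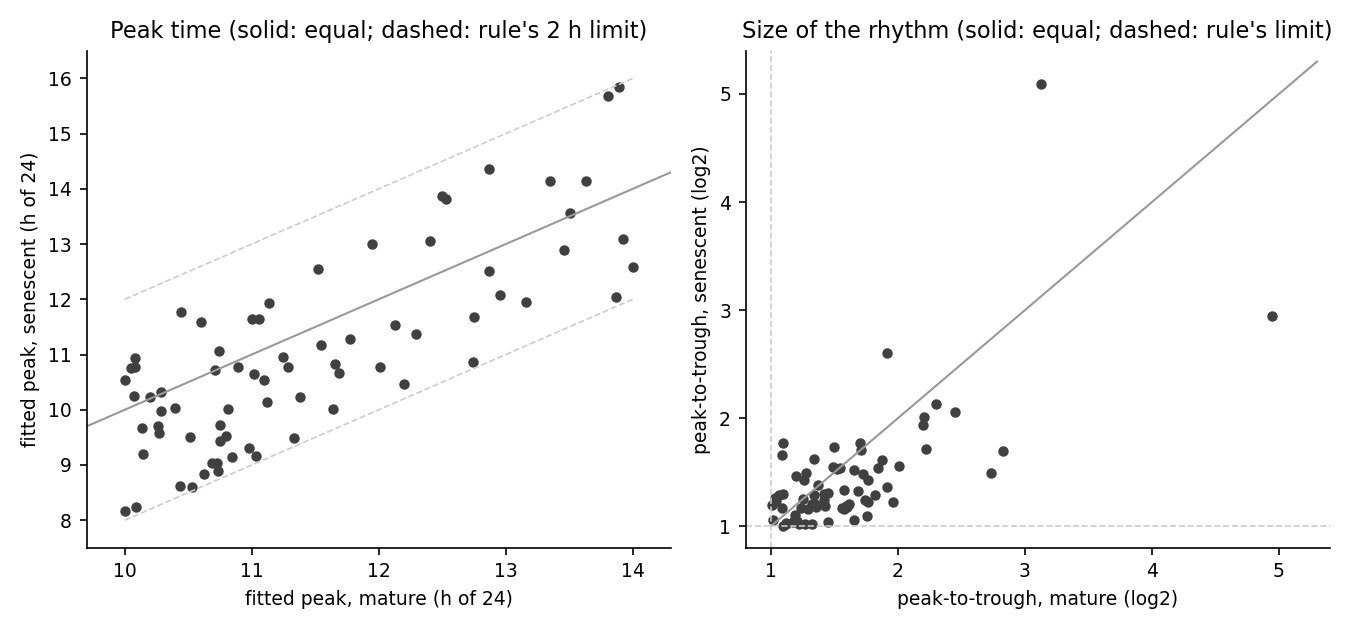
Fitted peak time in hours (left) and peak-to-trough difference in log2 (right) of each of the 73 genes, senescent leaves on the y axis and mature leaves on the x axis. Solid lines mark equal values and dashed lines the limits of the rule; 48 genes peaked earlier in senescent leaves, and 52 had the larger difference in mature leaves.

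TraesMAC7D03G04336890 had the deepest rhythm in senescent leaves and, of the 73 genes, the largest smaller value of the 2 stages. In senescent leaves its scaled count was 76.5 to 175 at the 8 dusk libraries (median 116) and 1.91 to 20.6 at the 8 dawn libraries (median 4.50). In mature leaves it was 159 to 429.8 at dusk (median 226) and 12.4 to 46.3 at dawn (median 29.7). Dusk and dawn libraries did not overlap in either stage, and the gene was at 0 in 1 senescent library at ZT75. The fitted peak-to-trough difference was 5.09 log2 in senescent and 3.12 log2 in mature leaves.

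TraesMAC5A03G02614810 had the deepest rhythm in mature leaves, with a peak-to-trough difference of 2.94 log2 in senescent and 4.94 log2 in mature leaves. Its 2 libraries had 7.37 and 0 scaled counts at ZT75 and 190.5 and 198 at ZT57 in senescent leaves. In mature leaves they had 7.68 and 0 at ZT75 and 421 and 393 at ZT85. In both stages it was lowest 3 h after subjective dawn rather than at dawn, and it climbed within a few hours.

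TraesMAC4D03G02556920 was among the more abundant genes with a deep rhythm. Its dusk libraries held 804 to 1331 scaled counts in senescent leaves (median 992) and 792 to 1539.8 in mature leaves (median 1031). Its dawn libraries held 223 to 582 in senescent leaves (median 331) and 144 to 402 in mature leaves (median 174). The dusk levels of the stages overlapped almost fully, while the dawn levels reached lower in mature leaves. TraesMAC7A03G03958420 differed in the other direction, with a peak-to-trough difference of 2.60 log2 in senescent and 1.92 log2 in mature leaves. Its dawn libraries held 14.1 to 70.6 scaled counts in senescent leaves (median 39.3) and 34.1 to 106 in mature leaves (median 59.2).

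TraesMAC1B03G00282780 held 192 to 277 scaled counts at dusk in senescent leaves (median 218) and 185 to 397 in mature leaves (median 295). At dawn it held 29.6 to 138 in senescent leaves (median 71.4) and 45.8 to 93.6 in mature leaves (median 65.9). Dusk stood clear of dawn in both stages, and the senescent dawn libraries were the more spread. TraesMAC1A03G00149430 held 107 to 166 scaled counts at dusk and 19.1 to 64.0 at dawn in senescent leaves, and 66.2 to 162 at dusk and 11.4 to 28.1 at dawn in mature leaves. TraesMAC1A03G00082060 held 72.3 to 127 at dusk and 24.1 to 46.8 at dawn in senescent leaves, and 44.8 to 119 at dusk and 4.95 to 26.7 at dawn in mature leaves. Both of these chromosome 1A genes reached lower at dawn in mature leaves, and their level was higher in senescent leaves by 0.49 ± 0.10 log2 for TraesMAC1A03G00149430 and 0.47 ± 0.13 log2 for TraesMAC1A03G00082060 (SE, limma adjusted p 3.40e-06 and 0.000818).

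The latest and earliest members show the width of the window. TraesMAC1D03G00485310 peaked at 12.6 h in senescent and 14 h in mature leaves, and TraesMAC5A03G02753880 at 8.17 h in senescent and 10 h in mature leaves. The widest shifts the rule admitted were -1.93 h for TraesMAC5A03G02708720, earlier in senescent leaves, and 1.96 h for TraesMAC6A03G03409960, later in senescent leaves. The period between 20 and 28 h that left the least scatter had a median of 23.5 h in senescent and 24 h in mature leaves. It was shorter in senescent leaves for 46 genes, longer for 22 and equal for 5, and the difference was not tested.

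The wave was asymmetric, with a fall longer than the rise. From the peak of the earlier cycle to the trough between the cycles the median gene took 14 h in both stages, and from that trough to the next peak it took 10 h in both. The rise was shorter than the fall for 48 genes in senescent and 56 in mature leaves, and longer for 13 genes in senescent and 9 in mature leaves. In senescent leaves 31 genes had their trough at ZT75 and 19 at ZT69, whereas in mature leaves 38 genes had it at ZT73 and 15 at ZT75. These times rest on means of 2 libraries at a 2 h spacing.

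A 12 h component added to the 24 h curve measures such departures from a single sine wave, and the rule did not use it. It was called (limma, adjusted p under 0.05) for 8 of the 73 genes in senescent leaves and 9 in mature leaves. Among all 42428 tested genes, 0.507% in senescent and 0.773% in mature leaves were called, and among those with a mean of at least 50 it was 0.85% in senescent and 1.22% in mature leaves. Both shares of the dusk genes lay above these backgrounds, and 4 genes were called in both stages. The backgrounds were not limited to genes with large rhythms, so the excess is not shown to be particular to dusk. Its difference between the stages was called in limma for 0 of the 73 genes and for 0.0% of all tested genes, with 11 and 3053 genes at an unadjusted p under 0.05. Leaving out either set of replicates left 0 senescent calls and 1 mature call. Among all tested genes it left 0 senescent calls in either case, with 131 mature calls without replicate 1 and 1 without replicate 2. The senescent count was also 4 without a filter on low values, 3 at a period of 23 h and 3 without ZT45, ZT47 and ZT49.

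TraesMAC5A03G02614810 had the smallest p of the dusk genes for this component in both stages. The component had a peak-to-trough size of 1.63 log2 beside 2.85 log2 for the 24 h component in senescent leaves (limma adjusted p 0.00178), and 2.10 beside 4.76 log2 in mature leaves (limma adjusted p 1.03e-06). TraesMAC7B03G04088760 had the same form of curve at higher counts. Its libraries held 119 and 115 scaled counts at ZT75 and 542 and 472 at ZT81 in senescent leaves, and 49.3 and 70.3 at ZT75 and 650.3 and 615 at ZT85 in mature leaves. Its 12 h component was 0.60 log2 in senescent (limma adjusted p 0.00749) and 0.84 log2 in mature leaves (limma adjusted p 3.68e-06). TraesMAC6B03G03496540 had 0.75 log2 in senescent leaves (limma adjusted p 0.00597). TraesMAC1D03G00485310 was called in both stages too, with 0.54 log2 in senescent (limma adjusted p 0.0410) and 0.61 log2 in mature leaves (limma adjusted p 0.00694).

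**Figure D3:**
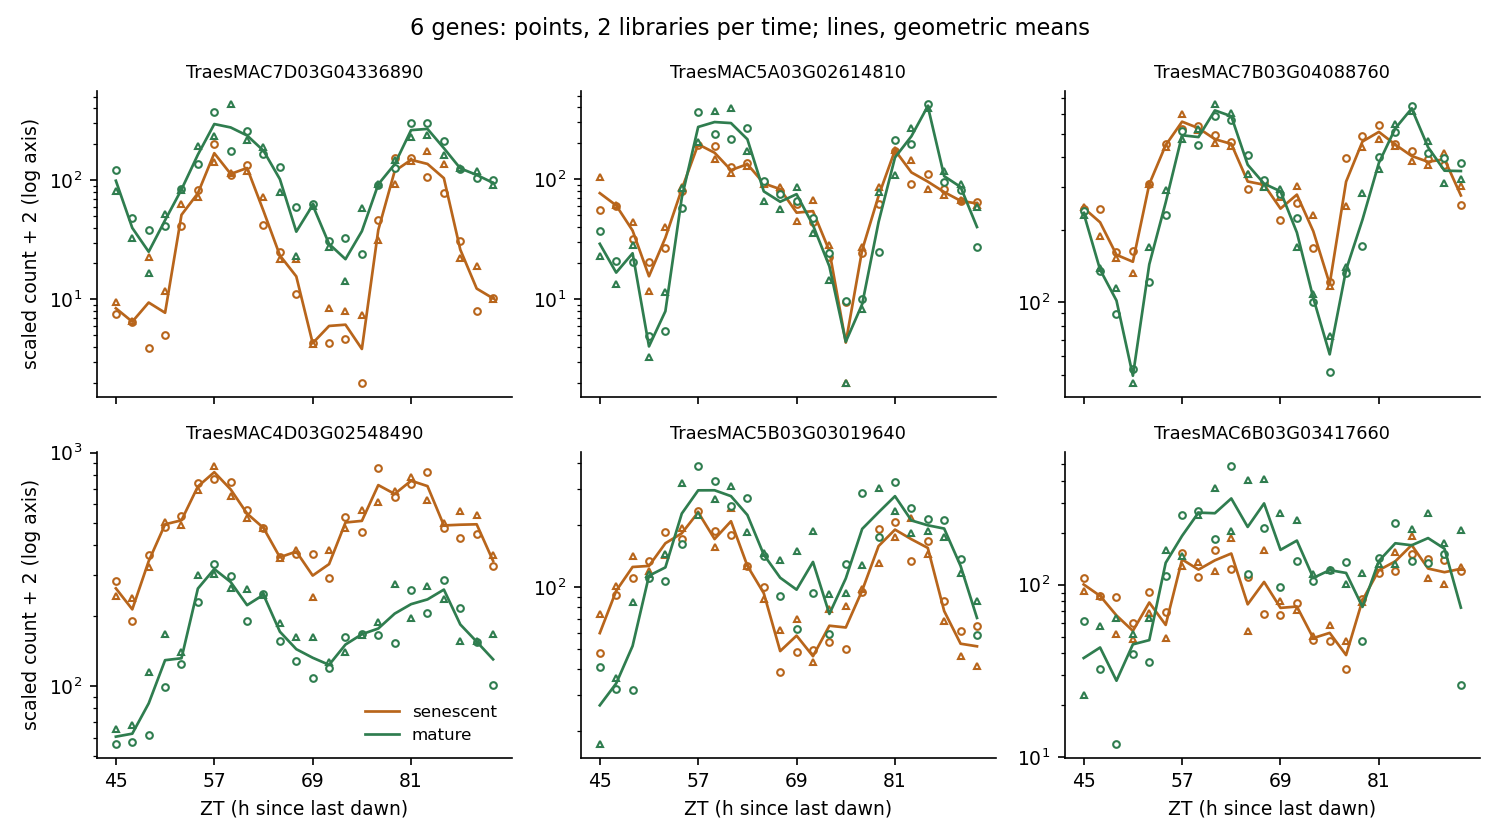
Scaled count plus 2 on a log axis against ZT in hours for 6 named dusk genes, with senescent leaves in brown and mature leaves in green. Circles and triangles are the 2 libraries of a time and lines their geometric means. TraesMAC5A03G02614810 and TraesMAC7B03G04088760 had their later trough at ZT75 in both stages.

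Most dusk genes also differed in their level averaged over the 48 h. The level differed between stages for 56 of the 73 genes (limma, adjusted p under 0.05), with 20 higher and 36 lower in senescent leaves. Among all tested genes 69.8% were called, 35.2% higher and 34.6% lower in senescent leaves, and 74.9% of genes with a mean of at least 50 were called, so the total for the dusk genes is near the background and the lower side is the fuller. The median difference was -0.16 log2 over the dusk genes and 0.01 log2 over all tested genes. After scaling each library to its total, 33 dusk genes were higher and 22 lower, with a median of 0.08 log2 against 0.24 log2 for all tested genes. The split in direction thus depends on the scaling, and the dusk genes lay below the median of all genes under both. A difference of at least 1 log2 was found for 1 higher and 5 lower dusk genes, where 4.74% and 5.18% of all tested genes were that far apart.

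TraesMAC4D03G02548490 was the gene most raised in senescent leaves. Its scaled count was 506 ± 177 in senescent and 176 ± 71.6 in mature leaves (SD over times, n = 48 each), and its FPKM was 10.2 ± 3.57 in senescent and 3.57 ± 1.45 in mature leaves. At dusk the senescent libraries held 475 to 824 and the mature libraries 187 to 293, without overlap. The level was higher by 1.55 ± 0.06 log2 in senescent leaves (SE, limma adjusted p 9.81e-42), a 2.92-fold difference.

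TraesMAC2B03G00986000 had the highest mean count of the 73 genes in both stages, with 1697 ± 488 in senescent and 984 ± 331 in mature leaves (SD, n = 48 each). Its dusk libraries held 2069.5 to 2532 in senescent and 944 to 1709 in mature leaves, and its level was higher by 0.81 ± 0.06 log2 (SE, limma adjusted p 2.71e-25). TraesMAC4B03G02385110 was higher by 0.86 ± 0.05 log2 and TraesMAC2B03G00959680 by 0.65 ± 0.05 log2 in senescent leaves (SE, limma adjusted p 1.96e-28 and 7.43e-21). With a larger p, TraesMAC3B03G01793900 was higher by 0.997 ± 0.101 log2 (SE, limma adjusted p 1.32e-15). TraesMAC4B03G02385110 peaked near 9.04 h in senescent and 10.7 h in mature leaves.

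TraesMAC7D03G04336890, the gene with the deepest rhythm in senescent leaves, was also the gene most lowered there on the log2 scale. It averaged 52.4 ± 56.9 scaled counts in senescent and 126 ± 96.5 in mature leaves (SD, n = 48 each), a difference of -1.83 ± 0.13 log2 (SE, limma adjusted p 5.17e-24). As ratios, its dawn medians (4.50 in senescent and 29.7 in mature leaves) lay further apart than its dusk medians (116 and 226). The log2 difference thus rests in part on low senescent dawn counts. TraesMAC1A03G00127450 averaged 129.7 ± 70.3 in senescent and 323 ± 148 in mature leaves, or -1.35 ± 0.10 log2 (SE, limma adjusted p 1.72e-23). TraesMAC1D03G00514700 was lower by 1.13 ± 0.08 log2 and TraesMAC4D03G02541170 by 0.95 ± 0.07 log2 in senescent leaves, with limma adjusted p of 4.79e-24 and 2.05e-22. With larger p, the difference was -1.67 ± 0.17 log2 for TraesMAC1B03G00312460 and -1.41 ± 0.13 log2 for TraesMAC1A03G00110680 (SE, limma adjusted p 3.64e-15 and 4.57e-18). TraesMAC1B03G00312460 averaged 145 ± 123 scaled counts in senescent and 430 ± 324 in mature leaves (SD, n = 48 each). Dusk libraries of TraesMAC1D03G00514700 held 76.1 to 145 in senescent and 163 to 289 in mature leaves, without overlap.

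Over the 46 h from ZT45 to ZT91 the dusk genes drifted downward in senescent leaves. Drift is the linear change fitted beside the 24 h curve. It was called for 29 of the 73 genes in senescent leaves, all falling (limma, adjusted p under 0.05), where 14.2% of all tested genes were called and 10.2% fell. Among genes with a mean of at least 50, 20.3% were called and 15.0% fell. The median was -0.44 log2 over the dusk genes and 0.00 log2 over all tested genes, and 62 of the 73 estimates were below 0. In mature leaves 7 genes were called, 4 rising and 3 falling, with a median of -0.03 log2. There 6.44% of all tested genes were called, 2.62% rising and 3.82% falling, and 8.33% of those with a mean of at least 50. Of the 29 falling genes, 18 also had a lower and 5 a higher level in senescent leaves.

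The downward drift in senescent leaves was not confined to genes of the dusk window. Under the same rule it fell for 51 of the 150 leading genes peaking from 6 to under 10 h and for 77 of the 110 genes peaking from 14 to under 18 h in mature leaves. Among the other 2904 genes of the dusk window with a mean of at least 50, 15.6% fell. After scaling to the totals, 22 dusk genes fell and 6 rose in senescent leaves. The count was 10 to 13 with 1 set of replicates left out, all falling, and 16, all falling, without ZT45, ZT47 and ZT49. Senescent drift was called for 6013 of all tested genes with all libraries. This fell to 1909 without replicate 1, 1511 without replicate 2 and 1899 without those times. The mature count was 12, with 9 rising and 3 falling, under the total scaling and at a period of 23 h, and 0 to 1 with 1 set of replicates left out. Without ZT45, ZT47 and ZT49 the mature split turned, with 1 rising and 5 falling and a median of -0.24 log2. The linear term correlated with the cosine of the sampled times (r = -0.34), so drift and rhythm are not fully separate in 48 h.

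TraesMAC5D03G03028230 had the smallest p for drift in senescent leaves. Its 2 libraries held 152 and 216 scaled counts at ZT61 and 102 and 189.9 at ZT85, and at the troughs 41.0 and 63.6 at ZT55 and 23.2 and 16.1 at ZT75. Its first 2 libraries at ZT45 were the highest, with 239 and 252. The drift was -1.78 ± 0.22 log2 in senescent leaves (SE, limma adjusted p 5.78e-09) and -0.74 ± 0.22 log2 in mature leaves (SE, limma adjusted p 0.0273). TraesMAC6B03G03496540 held 16.8 and 25.9 scaled counts at ZT75 and 105 and 69.3 at ZT51 in senescent leaves. Its drift was -1.47 ± 0.20 log2 in senescent leaves (SE, limma adjusted p 4.75e-08) and -0.45 ± 0.20 log2 in mature leaves (limma adjusted p 0.176).

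In mature leaves the largest falls were in TraesMAC1A03G00110680 and TraesMAC1B03G00312460, which were also called in senescent leaves. TraesMAC1A03G00110680 changed by -1.98 ± 0.33 log2 in senescent and -1.81 ± 0.33 log2 in mature leaves (SE, limma adjusted p 3.11e-06 and 7.87e-05). TraesMAC1B03G00312460 changed by -2.43 ± 0.44 log2 in senescent and -1.46 ± 0.44 log2 in mature leaves (SE, limma adjusted p 2.05e-05 and 0.0272). Both had their highest mature library at ZT45, with 2382 and 1821 scaled counts, where the other library of that time held 501 and 266. Their dusk and dawn libraries overlapped in both stages, and their best periods were 20 to 21.25 h, 20 h being the shortest tried. The mature call of TraesMAC1B03G00312460 was lost without ZT45 and ZT91 (-0.94 log2).

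A few genes rose in mature leaves. TraesMAC4D03G02556920 held 792 to 1026 scaled counts at ZT59 and ZT61 and 1036 to 1539.8 at ZT83 and ZT85, and rose by 0.82 ± 0.19 log2 (SE, limma adjusted p 0.00202). In senescent leaves its drift was 0.17 ± 0.19 log2 (limma adjusted p 0.635). TraesMAC5B03G02959400 rose by 0.56 ± 0.13 log2 in mature leaves (SE, limma adjusted p 0.00231), against 0.27 ± 0.13 log2 in senescent leaves (limma adjusted p 0.160).

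The drift itself differed between the stages for 8 of the 73 genes, each more negative in senescent leaves (limma, adjusted p under 0.05), where 2.42% of all tested genes were called, 1.98% as more negative, and 3.81% of those with a mean of at least 50. TraesMAC5B03G03019640 drifted by -1.01 ± 0.24 log2 in senescent and 0.53 ± 0.24 log2 in mature leaves, a difference of -1.54 ± 0.34 log2 (SE, limma adjusted p 0.00564). TraesMAC5D03G03230600 drifted by -1.18 ± 0.32 log2 in senescent and 0.68 ± 0.32 log2 in mature leaves, a difference of -1.85 ± 0.45 log2 (SE, limma adjusted p 0.0111). Both started low in mature leaves, with 39.1 and 15.4 scaled counts at ZT45 for TraesMAC5B03G03019640 and 25.01 and 3.08 for TraesMAC5D03G03230600. None of the 8 calls held with either set of replicates left out or without ZT45, ZT47 and ZT49. The loss was not particular to the dusk genes. Among all tested genes there were 1028 calls with all libraries, 0 without replicate 1, 3 without replicate 2 and 7 without those times.

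**Figure D4:**
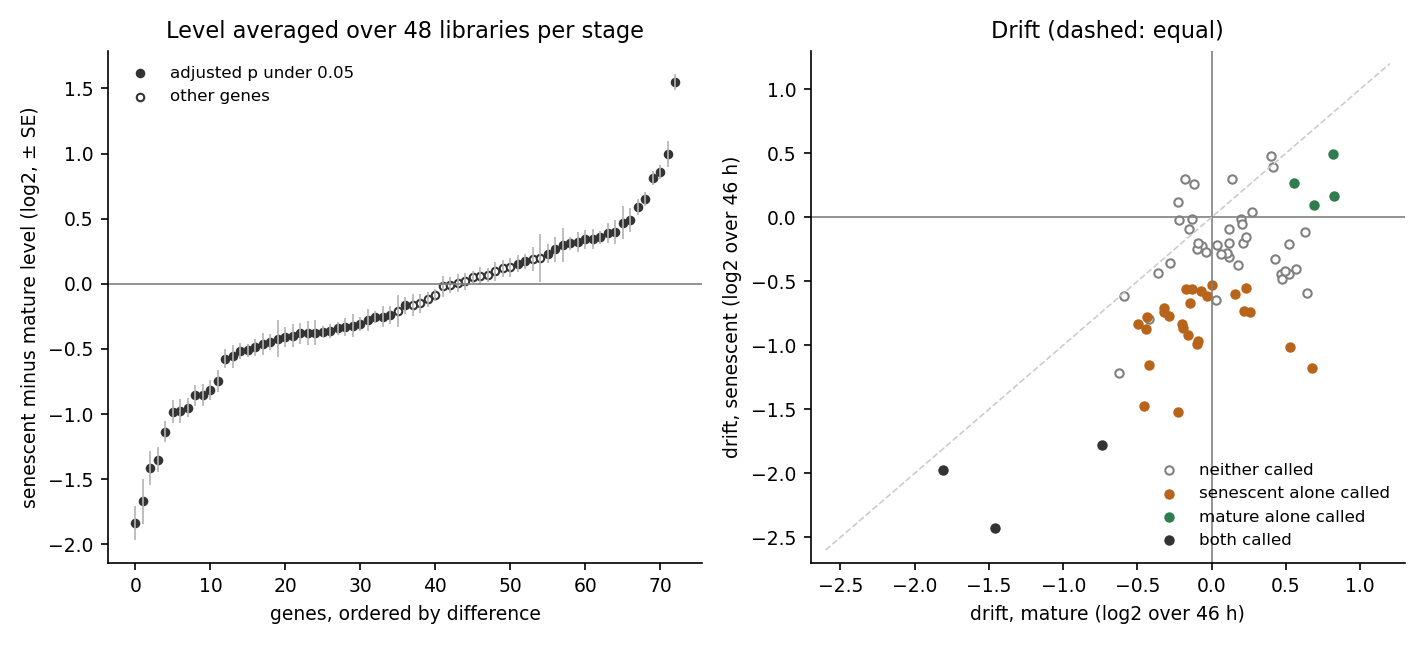
Left, senescent minus mature level of the 73 genes in log2 with SE bars, ordered by size, with filled points for an adjusted p under 0.05. Right, drift over 46 h in log2, senescent leaves on the y axis and mature leaves on the x axis; 29 genes fell in senescent leaves and 7 were called in mature leaves.

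In mature leaves the fitted wave of the dusk genes was flatter in the later than in the earlier 24 h. Few of the calls were left without the first hours of sampling, as given below. The 24 h curve was fitted separately to the later (ZT69 to ZT91) and the earlier 24 h (ZT45 to ZT67), and the difference of the 2 curves was tested. It was called for 25 of the 73 genes in mature leaves (limma, adjusted p under 0.05), with a smaller peak-to-trough difference in the later cycle for 24 and a larger one for 1. The test also responds to peak time, which was earlier in the later cycle for 17 of the 25 and later for 8. Among all tested genes 12.0% were called, and 17.8% of those with a mean of at least 50. The median peak-to-trough difference was 1.22 log2 in the later and 1.85 log2 in the earlier cycle, and it was smaller in the later cycle for 58 of the 73 genes. The median log2 ratio of later to earlier was -0.47, against -0.17 over all tested genes and -0.42 over the other genes of the dusk window. The flattening was thus not particular to the 73 genes.

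In senescent leaves the change between cycles was called for 2 dusk genes, both larger in the later cycle, where 1.11% of all tested genes and 1.71% of those with a mean of at least 50 were called. The median peak-to-trough difference there was 1.54 log2 in the later and 1.32 log2 in the earlier cycle, and it was smaller in the later cycle for 23 genes. The change itself differed between the stages for 7 genes (limma, adjusted p under 0.05), where 1.92% of all tested genes and 3.01% of those with a mean of at least 50 were called. These counts depended on the first hours of sampling. Without ZT45, ZT47 and ZT49, an alternative chosen after seeing the data, 3 mature, 0 senescent and 0 differing calls were left, while 55 genes were still smaller in the later cycle of mature leaves. With 1 set of replicates left out, 2 to 3 mature, 0 senescent and 0 differing calls were left. Calls also fell among all tested genes, from 5075 mature, 473 senescent and 815 differing calls with all libraries. They were 710, 0 and 18 without ZT45, ZT47 and ZT49. They were 839, 0 and 0 without replicate 1, and 84, 4 and 0 without replicate 2.

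TraesMAC6B03G03417660 had the smallest p for this change in mature leaves. Its scaled counts there were 9.89 and 62.4 at ZT49 and 489 and 202 at ZT63, but 102 and 113 at ZT73 and 131 and 259 at ZT87. The peak-to-trough difference was 0.32 log2 in the later and 3.19 log2 in the earlier cycle (limma adjusted p 0.000146). In senescent leaves it was 1.95 log2 in the later and 1.32 log2 in the earlier cycle (limma adjusted p 0.827), and the change differed between the stages (limma adjusted p 0.00628). Its 2 mature libraries often lay far apart, for example with 24.2 and 205 at ZT91. The adjusted p for mature leaves stayed under 0.05 in each alternative, while that of the difference was 0.257 without ZT45, ZT47 and ZT49, 0.229 without replicate 1 and 0.112 without replicate 2.

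TraesMAC4D03G02548490 held 55.2 to 113 scaled counts at ZT47 and ZT49 and 117 to 160.0 at ZT71 and ZT73 in mature leaves. Its dusk libraries held similar levels on both days, but it held 330 and 300 at ZT57 and 254 and 194 at ZT81. Its peak-to-trough difference was 0.79 log2 in the later and 1.902 log2 in the earlier cycle (limma adjusted p 0.000208). In senescent leaves TraesMAC1A03G00025470 held 327 to 394 scaled counts at ZT47 and ZT49 and 171 to 224 at ZT71 and ZT73, without overlap. Its peak-to-trough difference there was 1.62 log2 in the later and 0.64 log2 in the earlier cycle (limma adjusted p 0.00118). TraesMAC1B03G00282780 had 3.03 log2 in the later and 1.61 log2 in the earlier cycle of senescent leaves (limma adjusted p 0.0221), against 1.91 log2 in the later and 2.60 log2 in the earlier cycle of mature leaves. Its change differed between the stages (limma adjusted p 0.00968).

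**Figure D5:**
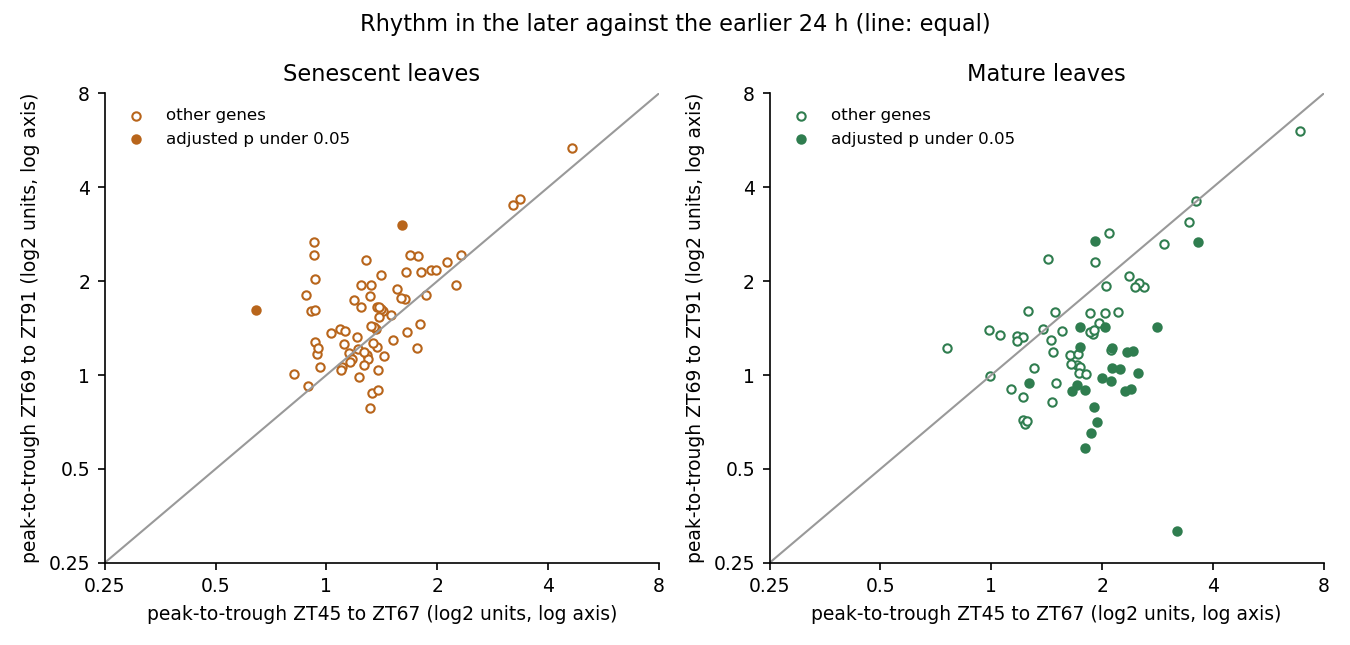
Peak-to-trough difference in log2 of each of the 73 genes in the later 24 h (y axis) against the earlier 24 h (x axis), both axes logarithmic, senescent leaves left and mature leaves right. Filled points had an adjusted p under 0.05 for the change of the curve; 24 of the 25 filled mature points lie below the line of equal values.

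The dusk genes were unevenly placed among the chromosomes. By identifier, 28 lay in the D, 27 in the B and 18 in the A subgenome, which is 38.4%, 37.0% and 24.7%, where the 20577 genes with a mean of at least 50 divided as 33.3%, 33.2% and 33.6%. Chromosomes 1A, 1B and 1D held 20 of the 73 genes (27.4%), against 13.3% of the 20577 genes. These shares were not tested, and copies of a gene on different subgenomes are not independent. Correlations between dusk genes were taken over the 96 libraries on log2 values, after subtracting each gene's mean in each stage. The median Pearson correlation was 0.63, and 22 of 2628 pairs exceeded 0.9. Since the genes were chosen for a shared peak time, this is a description. Once the fitted curves were removed, the median correlation was 0.21.

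The most alike pair was TraesMAC3D03G01918850 and TraesMAC3B03G01686810 (r = 0.97). At dusk TraesMAC3D03G01918850 held 637 to 939.5 scaled counts in senescent and 489 to 753 in mature leaves, and TraesMAC3B03G01686810 held 953 to 1353 in senescent and 901 to 1386 in mature leaves. The D gene was higher by 0.59 ± 0.06 log2 in senescent leaves and the B gene by 0.17 ± 0.06 log2 (SE, limma adjusted p 3.70e-15 and 0.00702). The next most alike genes, TraesMAC1D03G00565490, TraesMAC1B03G00390460 and TraesMAC1A03G00157480, lay on the 3 copies of chromosome 1, with r from 0.95 to 0.96. Of the 22 pairs over 0.9, 8 lay on copies of the same chromosome, where 11.1% of all pairs did. Whether such pairs are copies of 1 gene is not known from the identifiers, and reads shared between near-identical copies could raise these correlations.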

How the data were processed

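RNA-seq of 96 wheat flag-leaf libraries was used, grouped by the stage, time and replicate number in the labels. The deposited tables of counts hold signal values, that is, reads per gene rescaled by the authors. In the library with the fewest, 99.857% of nonzero values were whole multiples (tolerance 0.01) of a single step between 0.516 and 1.43. Reads per library were estimated by dividing by that step. The FPKM tables the authors deposited served for levels per length and as an alternative. The submitters' processing notes name bcl2fastq 2.17, STAR, Cufflinks and Cuffnorm. Their settings and the genome build are not given in the sources used here.

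Genes with a mean of at least 10 (42428 genes) were fitted together in limma 3.58.1 (R 4.3.3, tables read with data.table version 1.17.8), with a variance trend, on log2(scaled count + 2), a scale that shrinks changes at low values. Each stage had a level, a linear term and a 24 h cosine and sine. Further fits added a 12 h component, or separate curves for the 2 cycles. Benjamini-Hochberg adjusted p under 0.05 over all 42428 genes was called. All 73 dusk genes passed the filter. The fits were tested on simulated data. Summaries and figures used Python 3.11.15, numpy 2.4.6, pandas 2.3.3 and matplotlib 3.10.9.

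The 32 named genes are the 8 with the largest smaller peak-to-trough difference, those with the smallest p in each test and direction, the edge of the rule, the extremes of peak time and shift, and the most alike pair. Other genes were named after their values were seen. The genes and lists were chosen with earlier results of these data known. Replicate numbers did not pair libraries across stages: the correlation of their deviations at a time ranged from -0.20 to 0.13 and passed 0.1 at 3 of 24 times. Also tried were other pseudocounts, scalings, filters, periods, a replicate block, and left-out replicates or end times.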

Additional observations from a re-analysis of the deposited data

Results flagged for a closer look

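Results in which the stages differed by a direct test are repeated here with their values. The drift over 46 h differed between senescent and mature leaves for 8 of the 73 dusk genes, led by TraesMAC5B03G03019640 (limma adjusted p 0.00564) and TraesMAC5D03G03230600 (limma adjusted p 0.0111), both more negative in senescent leaves. The change of the daily curve between the later and the earlier cycle differed between the stages for 7 dusk genes, led by TraesMAC6B03G03417660 (limma adjusted p 0.00628) and TraesMAC1B03G00282780 (limma adjusted p 0.00968). Of these 7 genes, 4 were also among the 8: TraesMAC5B03G03019640, TraesMAC5D03G03230600, TraesMAC1D03G00554330 and TraesMAC2A03G00816590. The mature libraries of ZT45 and ZT49, whose 2 replicates lay far apart, belong to the earlier cycle and to the start of the drift. Both counts were 0 without ZT45, ZT47 and ZT49 in both stages, while without ZT45 and ZT91 the drift difference had 7 and the cycle difference 21. Among all tested genes, the drift and cycle differences had 7 and 18 calls without ZT45, ZT47 and ZT49. Without ZT45 and ZT91 they had 1153 and 2393. The part of single libraries in these differences was not tested.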

How the results depend on the processing

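Of the 32 named genes, those named for a test kept the direction of that test under every alternative. This does not cover the level of genes named for other reasons. Scaling to the total of all genes moved the level calls of the 73 dusk genes from 20 up and 36 down to 33 up and 22 down. The sign of a small level difference thus depends on the scaling. The fit with a replicate block changed none of the counts of called dusk genes: 56 for level, 29 (senescent) and 7 (mature) for drift, 8 for their difference, 8 (senescent) and 9 (mature) for the 12 h component, 0 for its difference, 2 (senescent) and 25 (mature) for the cycle change and 7 for its difference. With 1 set of replicates left out, the counts were 48 to 49 for level, 10 to 13 and 0 to 1 for senescent and mature drift, 0 and 1 for the senescent and mature 12 h component, 0 and 2 to 3 for the senescent and mature cycle change, and 0 for the differences in drift and in cycle change. Without a filter on low values they were 4 for the drift difference, 4 for the senescent 12 h component, 1 for the senescent cycle change and 3 for its difference between stages. At a period of 23 h they were 12 for mature drift, 3 for the senescent 12 h component and 2 for the cycle difference. At 25 h they were 5 for the drift difference, 16 for the senescent cycle change and 11 for the cycle difference. Over all tested genes the last 2 had 3578 and 2583 calls at 25 h, against 473 and 815 at 24 h. Scaled to the total of all genes, mature drift had 12. Without ZT45 and ZT91, the senescent cycle change had 11 and its difference 21. Over all tested genes these 2 tests had 1636 and 2393 calls without those times, against 473 and 815 with all times. Without ZT45, ZT47 and ZT49, chosen after seeing the data, senescent drift had 16, the drift difference 0, the senescent 12 h component 3, the mature and senescent cycle change 3 and 0, and the cycle difference 0. The cause of these moves was not tested. The rule without the linear term kept 44 of the 73 genes among 54 chosen. Without replicate 1 it kept 39 among 56, and without replicate 2 it kept 60 among 95. Scaled to the total of all genes it kept 68 among 132. At a period of 23 h it kept 65 among 82, at 25 h 50 among 55, and with a pseudocount of 8 it kept 60 among 61. A planned count-model test was not run, because the deposited values are scaled. With 2 libraries per time, p-values rest on the fitted curves, and 31 of the 73 genes had a mean scaled count under 100 in a stage.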
